A study of Mus musculus with 4 samples.

Results

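The transporters described here move amino acids, and in some cases serotonin, glycine, taurine or creatine, across cell and organelle membranes. They were taken by gene name from the solute carrier families Slc1a, Slc3a, Slc6a, Slc7a, Slc36a, Slc38a and Slc43a, which gave 62 of the 37074 gene names on the array, measured by 114 probes. A gene was tested where 1 of its probes was well above background on 2 or more arrays, which left 36, and 30 of these did so on all 4 (83.3%, against 92.5% of all genes tested). The arrays held total RNA from whole colons, taken from C57BL/6 mice on day 5 of drinking dextran sulphate sodium (DSS), which damages the colon epithelium and causes colitis. The 2 Junb fl/fl Cd4-Cre mice carried floxed Junb alleles together with a Cre recombinase expressed from Cd4 sequences, which removes floxed DNA in the T cell lineage, and the 2 control mice carried the same floxed alleles alone. Both groups had DSS, and no untreated colon was analysed, so the values compare genotypes under colitis. Whole colon mixes epithelium, muscle, nerve and immune cells, and a lower signal cannot tell fewer cells of a type apart from less RNA per cell.

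Amino acid carriers fall into families by mechanism. Light chains of the SLC7 family exchange amino acids and reach the surface only as dimers with a heavy chain, Slc3a2 (CD98) or Slc3a1. Many SLC1, SLC6 and SLC38 carriers draw on the sodium gradient and some SLC36 carriers on protons, and such carriers can concentrate their substrate. In the colon, carriers of the epithelium take up amino acids from lumen and blood, and the serotonin transporter Slc6a4 clears serotonin released by enterochromaffin cells. When amino acids run short, the transcription factor ATF4 raises several of these genes together with enzymes of amino acid synthesis.

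Each value rests on a probe of 60 bases. The first 30 bases of 4 of them are shown, because the statements on differences between genotypes (Slc38a11, Slc36a4) and between colons of 1 genotype (Slc6a4, Slc36a1) rest on these oligonucleotides. Positions of the whole probes are on mm9, at chr2:65154690-65154749 for Slc38a11, chr9:15542700-15542759 for Slc36a4, chr11:76845560-76845619 for Slc6a4 and chr11:55049533-55049592 for Slc36a1.
Slc38a11: acaagattagcactgatgagcatggagact
Slc36a4: ttcttgttgggcacctatgtcactgttgaa
Slc6a4: acataaaccacctaagagaaaacagggatg
Slc36a1: atcgtaaagctgtcagtatatgttgaaatc

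Values are log2 signals relative to the 75th percentile of the array, so 0 is a signal at that percentile and 1 is 2-fold above it. Each array had 27935 to 29090 probes well above background and 0 saturated spots. Across the 19325 genes tested the arrays correlated with Pearson's r from 0.976 to 0.984, the lowest being between the 2 controls. Epcam, Krt8, Krt20, Car1 and the other 4 colon epithelium markers were all measured, and 5 of these 8 were higher and 3 lower in the mutants, with a median difference of 0.076. Junb itself was at 4.44 and 4.47 in the Junb fl/fl Cd4-Cre colons, against 4.23 and 4.39 in the controls, which is no check of a deletion limited to T cells. The labels give no sex, but replicate 1 and replicate 2 parted in sex-linked genes: Xist, transcribed from the inactive X chromosome, was at -0.77 and -6.43 in the mutants and -0.55 and -6.13 in the controls, replicate 1 first, and the Y-linked Eif2s3y showed the opposite order, with -6.20 and -0.11 in the mutants and -6.08 and 0.19 in the controls. Uty and Ddx3y had the order of Eif2s3y, whereas Kdm5d, also Y-linked, read -2.44 and -2.25 in the mutants and -2.52 and -2.33 in the controls. Values within the replicate 1 pair and the replicate 2 pair are therefore given where they part.

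Most of these transporters differed little between the genotypes. No member passed an adjusted p of 0.05 (limma, Benjamini-Hochberg over all genes; smallest adjusted p among members 0.428), and neither did any other gene (0% of 19325). At an unadjusted p under 0.05, Slc38a11 and Slc36a4 were lower in the mutants and no member was higher. That is 5.56% of the 36, against 9.29% of all genes in either direction, 3.98% lower and 5.31% higher, and 2 genes are too few to set these shares apart. Slc38a11 also differed by at least 2-fold, which with the same p held for 1.36% of all genes. The median difference, mutant minus control, was -0.11 over the members and 0.022 over all genes. For 15 of the 36 the replicates of both genotypes lay further apart than the genotype means, as for 37.1% of all genes. The median size of the difference, without its sign, was 0.19 for the members and 0.17 for all genes, while the 2 replicates of a genotype differed by a median of 0.28 in mutants and 0.25 in controls for the members. For 25 of the 36 members the 95% interval of the difference, not adjusted for the number of genes, lay within 2-fold in either direction, which held for 78.1% of all genes. The direction leaned to lower values: 24 members were lower in the mutants and 12 higher, where 46.6% of all genes were lower. Both mutants lay below both controls for 12 members, and above for 2 members, with 17.6% and 25.7% of all genes doing so (14 members and 43.2% of all genes either way). Slc1a7, 1 of the 2 above, entered the test through its mutant arrays alone. Scaling each array to its median in place of the 75th percentile gave 19 members lower and 17 higher, where 34.2% of all genes were lower.

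**Figure D1:**
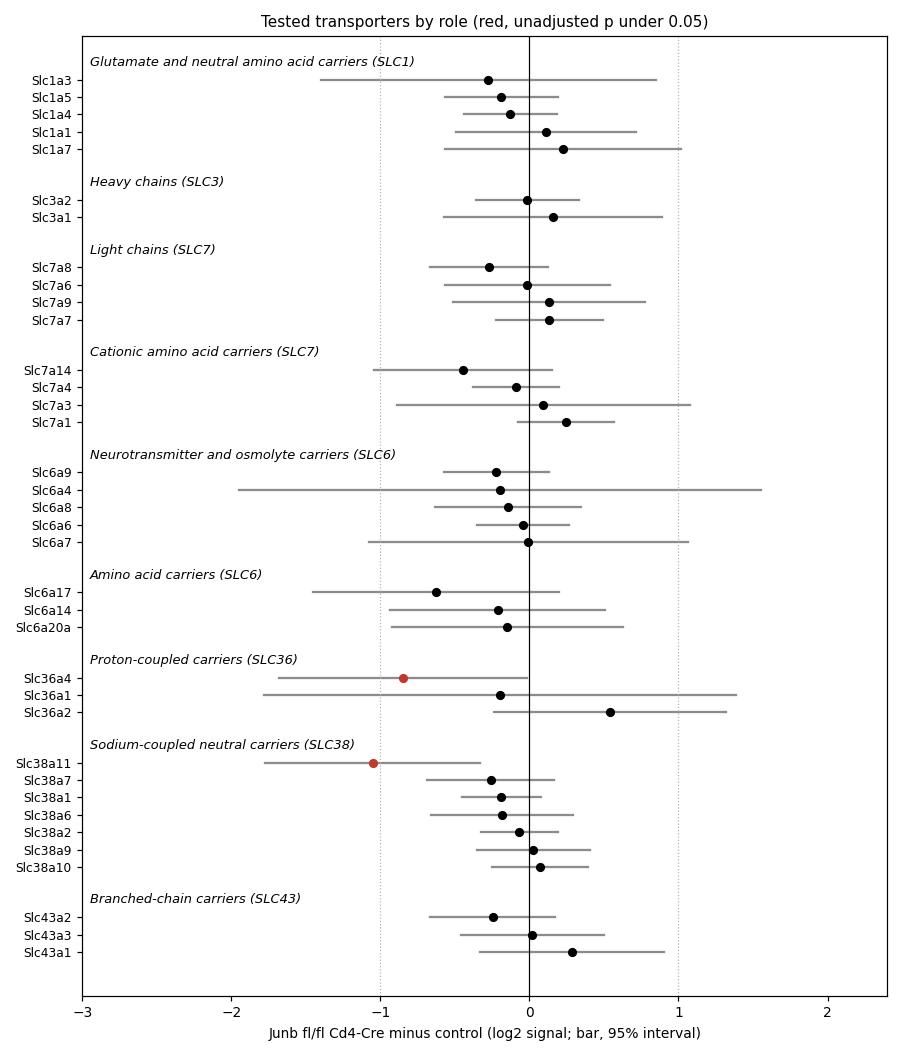
Difference between Junb fl/fl Cd4-Cre and control colons for the 36 tested transporters, by role. Points are differences in log2 signal (n = 2 arrays each), bars the 95% interval of the moderated fit, dotted lines 2-fold; Slc38a11 (-1.05) and Slc36a4 (-0.85) are the members with an unadjusted p under 0.05.

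Among the sodium-coupled SLC38 carriers of neutral amino acids, Slc38a11 passed the unadjusted threshold on a dim probe. Slc38a11 was at -3.63 and -4.00 in the Junb fl/fl Cd4-Cre colons, against -2.82 and -2.71 in the controls. Both mutants lay below both controls, and mutant replicate 2 was the array on which the probe was not well above background. The difference was -1.05 ± 0.28 (SE; 95% interval -1.78 to -0.33), with a limma unadjusted p of 0.0131 and an adjusted p of 0.428. Within the replicate 1 pair it was -0.82 and within the replicate 2 pair -1.29. Without 1 array the difference was -1.24 to -0.87. The unadjusted call was lost without control replicate 2 (-0.999) and without mutant replicate 2 (-0.87), with normexp background correction (-0.23), and without the filter on dim probes, where the difference stayed at -1.05. No array showed the 3 other Slc38a11 probes well above background, so no second probe bears on this value.

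Markers of enteroendocrine cells, the hormone-producing cells of the epithelium, moved the same way as Slc38a11. All 6 of 6 listed markers were measured on the arrays and lower in the mutants, 5 of them at an unadjusted p under 0.05 (3.98% of all genes), with a median difference of -0.98. Their summed signal, as multiples of the 75th percentile, was 34.8 and 34.3 in the mutants and 70.0 and 70.5 in the controls. Chga, a protein of secretory granules, was at 2.87 and 3.03 in mutants, against 4.18 and 4.08 in controls. Neurod1, a transcription factor of these cells, was at -2.93 and -3.83 in mutants and -2.85 and -2.77 in controls. All 5 smooth muscle markers (median -0.65), all 6 tested T cell markers (-0.44) and all 4 B cell markers (-0.21) were lower too. So were all 3 endothelial markers (-0.39) and all 3 red blood cell markers (-1.24). All 8 proliferation markers and 3 of 4 tested neutrophil markers were higher, and 46.6% of all genes were lower. The lower direction was thus not particular to enteroendocrine cells, and the part of any cell type in the Slc38a11 result was not tested.

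The remaining SLC38 carriers differed less. Slc38a1, a system A carrier that brings in glutamine and other neutral amino acids, was at 3.26 and 3.24 in mutants, against 3.39 and 3.49 in controls, a difference of -0.19 ± 0.10. The groups did not overlap, and all 4 of its passing probes were lower in the mutants (-0.59 to -0.19). Averaging those probes gave -0.40 with an unadjusted p of 0.0304. Slc38a2, the system A carrier that ATF4 raises when amino acids are scarce, was nearly level at 2.44 and 2.45 in mutants and 2.50 and 2.52 in controls (-0.068 ± 0.10). Slc38a9, a lysosomal carrier that signals arginine to the kinase mTORC1, was at 3.81 and 3.81 in mutants, against 3.97 and 3.61 in controls, and the groups overlapped. Its difference of 0.025 had a 95% interval from -0.35 to 0.40. A second Slc38a9 probe, also well above background on all 4 arrays, was much dimmer and of opposite sign (-0.070). It read -1.09 and -0.83 in mutants, against -1.05 and -0.73 in controls. Slc38a7, which carries glutamine out of lysosomes, differed by -0.26 ± 0.17 and Slc38a10 by 0.071 ± 0.13. Slc38a6 differed by -0.18 ± 0.19, but its 3 passing probes disagreed in sign (-0.71 to 0.058). The 7 tested SLC38 genes thus split into 5 lower and 2 higher, with a median of -0.18.

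The 3 tested carriers of the SLC36 family parted. Slc36a4, known for its high affinity for tryptophan and proline, was at -2.93 and -2.34 in mutants, against -1.49 and -2.09 in controls. The groups did not overlap, but the nearest arrays, mutant replicate 2 and control replicate 2, were close. The difference was -0.85 ± 0.33 (95% interval -1.68 to -0.018), with a limma unadjusted p of 0.0468 and an adjusted p of 0.532. It was -1.45 in the replicate 1 pair and -0.25 in the replicate 2 pair. Without control replicate 1 or mutant replicate 1 it was -0.55 in each case, no longer past the unadjusted threshold. The call was also lost with normexp background correction (-0.41), with quantile normalization (-0.78), without the filter on dim probes and without the intensity trend, where the difference stayed at -0.85. Slc36a4 has a single probe on the array.

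Slc36a2, a carrier of small amino acids such as glycine and proline, had the largest positive difference of the members. It was at -1.38 and -1.99 in mutants and -1.97 and -2.48 in controls, overlapping because mutant replicate 2 lay just below control replicate 1. The difference of 0.54 ± 0.30 did not pass (adjusted p = 0.626), and was 0.58 and 0.49 in the replicate 1 and replicate 2 pairs. With the replicate number as a block its limma unadjusted p was 0.0260, with an adjusted p of 0.227. In that fit 17.5% of all genes had an unadjusted p under 0.05. A second Slc36a2 probe, also well above background on all 4 arrays, had the opposite sign, with a difference of -0.35, so the gene has no settled direction.

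**Figure D2:**
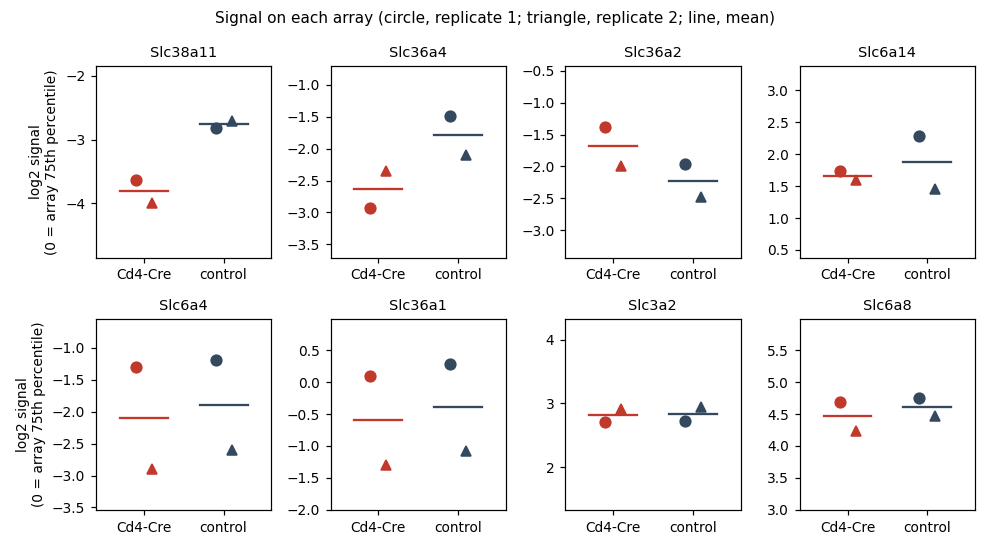
Log2 signal of 8 transporters on each array, with 0 at the array's 75th percentile and the same span of 3 log2 units in each panel. Slc38a11 and Slc36a4 lie lower in both Junb fl/fl Cd4-Cre colons, whereas Slc6a4 and Slc36a1 separate replicate 1 (circles) from replicate 2 (triangles) in both genotypes.

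The serotonin transporter Slc6a4 and the proton-coupled carrier Slc36a1 differed between colons of 1 genotype more than between genotypes. Slc6a4 was at -1.30 and -2.89 in the mutants, against -1.20 and -2.60 in the controls. Slc36a1, found on lysosomes and on the brush border, was at 0.10 and -1.29 in mutants and 0.28 and -1.07 in controls. In both genotypes replicate 1 was the higher colon, by 1.59 and 1.40 log2 units for Slc6a4 and by 1.40 and 1.35 for Slc36a1, mutants before controls. The genotype differences were -0.20 ± 0.69 and -0.20 ± 0.62, with intervals (-1.95 to 1.55, and -1.78 to 1.39) wide enough to hold a change of more than 2-fold either way. The fit had no block, so these intervals count the split between replicates as spread. In the replicate 1 and replicate 2 pairs the differences were -0.10 and -0.29 for Slc6a4, and -0.17 and -0.22 for Slc36a1. A second Slc6a4 probe, not well above background in control replicate 2, gave -3.06 and -3.99 in mutants and -2.02 and -4.17 in controls, again higher in replicate 1. The other Slc36a1 probe was well above background in mutant replicate 1 alone (-4.03 and -4.45 in mutants, -4.54 and -4.52 in controls), so that split rests on 1 probe. Slc6a4 and Slc36a1 were the only tested members at least 2-fold higher in replicate 1 of both genotypes, which held for 0.683% of all genes. No member was so in replicate 2 (0.657%). Both genes were picked out after their values were seen, and no test was made.

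The replicates also parted in genes that mark position along the gut. Hoxb13, a homeobox gene of the distal colon, was at 4.43 and 1.56 in the mutants and 4.82 and 3.52 in the controls. The difference in Hoxb13 was -0.40 in the replicate 1 pair and -1.96 in the replicate 2 pair. The summed signal of the 4 tested distal Hox genes was 23.6 and 3.55 in the mutants, against 30.6 and 12.7 in the controls. All 4 were lower in the mutants, with a median difference of -0.96, where 46.6% of all genes were lower. None of the 4 had a limma unadjusted p under 0.05. The 5 enteric neuron markers had summed signals of 18.8 and 23.2 in the mutants and 22.9 and 21.9 in the controls, with no common direction between replicates. Whether sex or the stretch of colon sampled has a part in the Slc6a4 and Slc36a1 values was not tested. With 1 colon of each kind per genotype the replicate numbers and these features cannot be told apart. The part of the stretch sampled in differences between genotypes was not tested either.

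**Figure D3:**
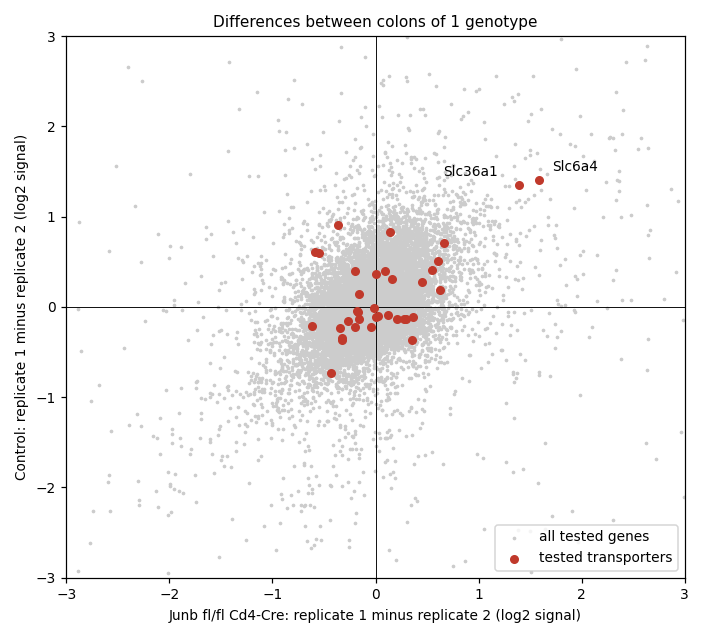
Difference between replicate 1 and replicate 2 in the Junb fl/fl Cd4-Cre colons (horizontal) and in the controls (vertical), in log2 signal, for all tested genes (grey) and the 36 transporters (red). Slc6a4 and Slc36a1 lie above 1 on both axes; 175 genes beyond 3 on either axis are not drawn.

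The other transmitter and osmolyte carriers of SLC6 were nearly level or slightly lower. Slc6a8, which imports creatine for the phosphocreatine energy store, was at 4.69 and 4.24 in mutants and 4.75 and 4.47 in controls, a difference of -0.14 ± 0.19 with overlapping groups. Slc6a9, a glycine transporter, differed by -0.22 ± 0.14, with both mutants below both controls. Slc6a6, the taurine transporter, differed by -0.043 ± 0.12. Slc6a7, a proline transporter best known from brain, differed by -0.0076 ± 0.42, and its replicate pairs went opposite ways, at -0.64 and 0.63. All 5 tested members of this group, Slc6a4 included, were lower in the mutants on their brightest probe, and none passed the unadjusted threshold. A second Slc6a8 probe, also well above background on all 4 arrays, gave a difference of 0.061. No array showed a probe well above background for the GABA carriers Slc6a11, Slc6a12 and Slc6a13. Nor did any for the noradrenaline and dopamine transporters Slc6a2 and Slc6a3 or the glycine transporter Slc6a5.

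Of the amino acid carriers of SLC6, Slc6a14 takes up neutral and cationic amino acids at the luminal face of the epithelium. It was at 1.73 and 1.59 in mutants, against 2.29 and 1.46 in controls, so that the mutants lay between the 2 controls. The difference of -0.21 ± 0.28 had an adjusted p of 0.833, and it was -0.56 in the replicate 1 pair and 0.13 in the replicate 2 pair. Without control replicate 2 it was -0.63 at an unadjusted p of 0.0111, and without control replicate 1 it was 0.20. Slc6a17, a carrier of synaptic vesicles, was at -4.12 and -3.80 in mutants and -3.51 and -3.15 in controls (-0.63 ± 0.32, unadjusted p = 0.109, adjusted p = 0.603). Both mutants lay below both controls, by nearly the same amount in the 2 replicate pairs (-0.61 and -0.65), and the probe was not well above background in mutant replicate 1. Normexp background correction took the difference to -0.061. The 5 enteric neuron markers had a median difference of -0.31, with 4 of 5 lower, Ret at -0.51 ± 0.16 among them. Their part in the Slc6a17 value was not tested. The proline carrier Slc6a20a differed by -0.15 ± 0.30. Slc6a19, the main neutral amino acid carrier of the small intestine, stayed at background throughout, as did Slc6a15, Slc6a16 and Slc6a18.

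Both heavy chains were measured in all 4 colons. Slc3a2, the partner of most light chains, was at 2.72 and 2.91 in mutants, against 2.72 and 2.94 in controls. The values overlapped almost fully, and the difference was -0.016 ± 0.14 with a 95% interval from -0.36 to 0.33. A second Slc3a2 probe, also well above background on all 4 arrays, read 1.63 and 1.96 in mutants, against 1.497 and 1.54 in controls (0.28, without overlap), and the remaining one gave -0.0018, so the probes did not share a direction. Slc3a1, the partner of the cystine and dibasic amino acid carrier Slc7a9, was at 1.35 and 1.78 in mutants and 1.04 and 1.77 in controls (0.16 ± 0.29). Slc7a9 itself differed by 0.13 ± 0.25.

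Among the light chains that pair with Slc3a2, Slc7a7, which exports cationic amino acids at the blood side of the epithelium, was at 3.57 and 3.27 in mutants and 3.22 and 3.35 in controls. Mutant replicate 1 was the highest of the 4, the other 3 lay close together, and the difference was 0.13 ± 0.14. Slc7a6, which carries similar substrates, differed by -0.014 ± 0.22, and its replicate pairs went opposite ways, at 0.35 and -0.38. Slc7a8, an exchanger of neutral amino acids, was at -0.88 and -0.83 in mutants, against -0.70 and -0.48 in controls (-0.27 ± 0.15), with no overlap. Slc7a5, the large neutral amino acid exchanger of growing cells and activated lymphocytes, has 1 probe here, which no array showed well above background (-4.21 and -4.25 in mutants, -4.64 and -4.55 in controls), so no difference is given.

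Slc7a11 carries cystine into cells in exchange for glutamate and supplies cysteine for glutathione. It did not enter the test, since 3 of its 4 probes were well above background in mutant replicate 2 and on no other array, and the other on none. One of them read -6.19 and -2.72 in the mutants, against -6.06 and -3.70 in the controls. A second read -6.14 and -3.48 in mutants and -5.99 and -5.94 in controls. The third read -4.32 and -3.77 in mutants, against -4.40 and -3.99 in controls. Mutant replicate 2 was the highest array for all 4 probes, and mutant replicate 1 lay at or near the level of control replicate 1 on these 3. The fourth probe read -5.34 and -5.09 in mutants and -6.18 and -5.64 in controls. A single array supports no difference between genotypes.

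**Figure D4:**
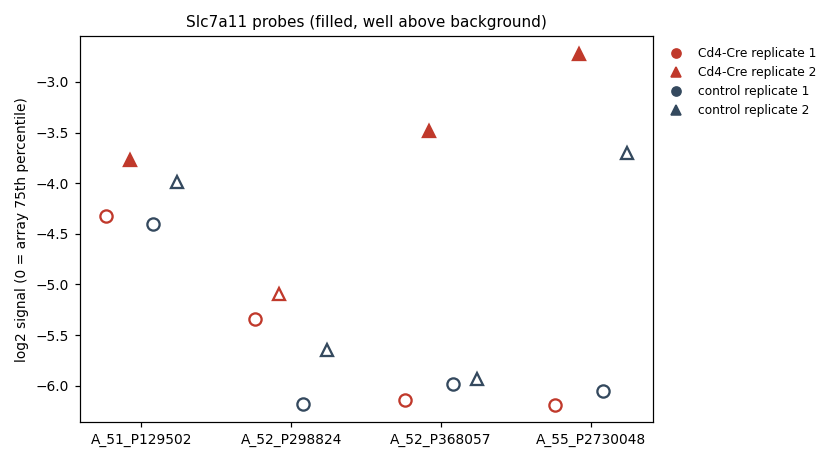
Log2 signal of the 4 Slc7a11 probes on each array (0 = the array's 75th percentile). Filled symbols are well above background, which was the case in Junb fl/fl Cd4-Cre replicate 2 alone, on 3 probes.

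Most but not all tested neutrophil markers had their highest signal on the same array. Of the 4 tested neutrophil markers 3 were higher in the mutants and 1 was lower, with a median of 2.08, while Cxcr2 and Mpo were not tested. Their summed signal was 18.7 and 40.2 in the mutants and 11.1 and 14.5 in the controls, and S100a8, a subunit of calprotectin, was at 1.12 and 3.10 in mutants and -0.89 and 0.62 in controls. Ly6g, a neutrophil surface protein, was instead lowest on that array, at 3.28 and 2.47 in mutants and 3.20 and 2.81 in controls. Their part in the Slc7a11 signal was not tested. Mutant replicate 2 was also the single array above background for Slc7a10, at -4.69 and -3.92 in mutants and -4.71 and -4.00 in controls. The same held for Slc38a8, at -4.15 and -3.17 in mutants, against -3.88 and -4.18 in controls. Neither gene met the 2 arrays the test needs. For Slc38a5 it was control replicate 2, at -6.34 and -6.47 in mutants and -6.21 and -2.69 in controls. For Slc6a20b it was control replicate 1, at -5.98 and -5.68 in mutants and -1.43 and -4.59 in controls. For 21 of the 62 transporters no array had a probe well above background.

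The promoter of Slc7a11 is shown because this gene is a known target of ATF4. It was chosen after the values were seen. RefSeq gives the 250 bases before its start site (GRCm38.p6, chr3:50443614-50443863, minus strand), and capitals mark the 2 matches to TGATGNAA, the letters of the C/EBP-ATF response element, 1 on each strand, which begin 66 and 47 bases before the start.
Slc7a11: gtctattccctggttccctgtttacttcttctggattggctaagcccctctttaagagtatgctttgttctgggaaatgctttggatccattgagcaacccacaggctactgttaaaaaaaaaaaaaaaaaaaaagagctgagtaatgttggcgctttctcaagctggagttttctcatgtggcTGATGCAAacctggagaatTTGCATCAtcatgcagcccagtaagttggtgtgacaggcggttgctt

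Promoter windows of 300 bases were found in the RefSeq table for 44 of the 62 transporters, 65 windows in all. The letters TGATGNAA, on either strand, occurred in 4 of these windows (6.15%), belonging to Slc7a11, Slc7a7 and Slc1a4, and in 3.97% of all 32851 promoter windows. The letters TGANTCA, with any base at N, take in sites bound by AP-1 factors such as JunB and are the same on both strands. They occurred in 9 windows (13.8%) of 8 genes, among them Slc6a14, Slc6a17, Slc7a1 and Slc3a1, and in 7.81% of all windows. Matches were counted by letters alone, and binding was not tested. The Slc7a11 window printed above holds no TGANTCA. Neither motif was found in the window of Slc38a11 or of Slc36a4.

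Cationic amino acid carriers of SLC7 split evenly, with 2 of 4 tested members higher. Slc7a1, the widely expressed importer of arginine and lysine, was at 2.70 and 2.50 in mutants, against 2.29 and 2.42 in controls. Both mutants lay above both controls, with a difference of 0.25 ± 0.13 (adjusted p = 0.602), which was 0.42 in the replicate 1 pair and 0.078 in the replicate 2 pair. Slc7a14 was at -2.49 and -2.30 in mutants and -1.75 and -2.15 in controls (-0.44 ± 0.23). The groups did not overlap on that probe, but a second Slc7a14 probe gave 0.049. Slc7a4 differed by -0.092 ± 0.11 and Slc7a3, an importer of cationic amino acids best known from neurons, by 0.092 ± 0.39, with 2 of its 4 arrays not well above background. Slc7a2, the inducible arginine importer of macrophages, stayed at background in all 4 colons.

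Glutamate and neutral amino acid carriers of SLC1 showed small differences in both directions. Slc1a5, a glutamine carrier, was at 2.20 and 2.04 in mutants, against 2.47 and 2.15 in controls. Mutant replicate 1 lay above control replicate 2, and the difference was -0.19 ± 0.15 (adjusted p = 0.710). Slc1a4, which carries alanine, serine and cysteine, was at 1.18 and 1.35 in mutants and 1.37 and 1.42 in controls (-0.13 ± 0.12), without overlap. Slc1a1, the glutamate transporter of epithelia, differed by 0.11 ± 0.24, and both of its probes gave the same sign. Slc1a3, a glutamate transporter of glia, differed by -0.28 ± 0.44 and was well above background in replicate 1 of each genotype only. Slc1a7, a glutamate transporter best known from retina, was well above background in both mutants and in neither control. It averaged -3.74 in mutants and -3.97 in controls, and it entered the test through the mutants alone, so its direction is no independent result.

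The SLC43 carriers of branched-chain and other substrates gave no common direction. Slc43a2, a carrier of neutral amino acids, was at -0.74 and -0.47 in mutants, against -0.44 and -0.28 in controls (-0.25 ± 0.16), without overlap, and its other passing probe gave -0.37. Slc43a1 differed by 0.28 ± 0.24 on its brighter probe and by -0.18 on the other. Slc43a3, a carrier of purine nucleobases, differed by 0.019 ± 0.19. In all, 17 members had several passing probes, and in 7 of these the probes disagreed in sign.

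From a list of 11 enzymes of transmitter and glutamate metabolism 10 were tested, 7 lower and 3 higher, with a median of -0.35, and 3 were lower at an unadjusted p under 0.05 (3.98% of all genes). Tph1, the enzyme that commits tryptophan to serotonin in the gut, was at -0.53 and -0.0043 in mutants, against 0.55 and 0.58 in controls (-0.83 ± 0.20). Ddc, which completes serotonin synthesis, was at 2.23 and 1.99 in mutants and 2.90 and 2.57 in controls (-0.62 ± 0.16). Maob, which breaks down amines, differed by -0.54 ± 0.17. Among 15 tested carriers of amino acids, peptides and amines from other families, 8 were higher and 7 lower, with a median of 0.032. One of them, the vesicular amine transporter Slc18a1, which loads serotonin into granules, was at -2.67 and -2.74 in mutants, against -1.98 and -2.00 in controls (-0.72 ± 0.20). Slc15a2, a transporter of small peptides, was at -2.16 and -1.47 in mutants and -2.83 and -3.25 in controls (1.23 ± 0.32). These genes had limma adjusted p values above 0.05, like every other gene. The enteroendocrine markers given above were lower in the same colons, and their part in the Tph1, Ddc and Slc18a1 values was not tested.

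The amino acid response list, targets and partners of ATF4, was measured in full, with 12 of 18 genes higher and a median of 0.073. The 3 at an unadjusted p under 0.05, Phgdh, Psat1 and Shmt2, were all higher, where 5.31% of all genes were higher at that p. Phgdh, the first enzyme of serine synthesis, was at 2.12 and 1.89 in mutants, against 0.98 and 1.06 in controls (0.99 ± 0.13). Psat1, the next enzyme, differed by 0.62 ± 0.18 and Shmt2, which turns serine into one-carbon units in mitochondria, by 0.61 ± 0.17. The other 15 ranged from -0.43 for Nupr1 to 0.44 for Mthfd2, a mitochondrial one-carbon enzyme. Both mutants lay above both controls for 4 genes of the list, Mthfd2 among them (25.7% of all genes). They lay below both controls for 3, Nupr1, Atf3 (-0.41) and Ddit3 (-0.37), as for 17.6% of all genes. Psph, the last enzyme of serine synthesis, differed by 0.13 with overlapping groups, and Atf4 itself by 0.013. All 8 of 8 proliferation markers were higher in the same colons, 7 at an unadjusted p under 0.05, with summed signals of 57.0 and 39.7 in mutants and 28.4 and 24.7 in controls. Their part in the Phgdh, Psat1 and Shmt2 values was not tested.

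Glutathione and NRF2 genes had 5 higher and 5 lower of 10, with a median of 0.0086 and with Gsr, glutathione reductase, at 0.37 ± 0.12 as the 1 gene at an unadjusted p under 0.05. Genes of amino acid sensing by mTORC1 had 4 higher and 5 lower of 9 tested, with a median of -0.057 and none past that threshold.

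**Figure D5:**
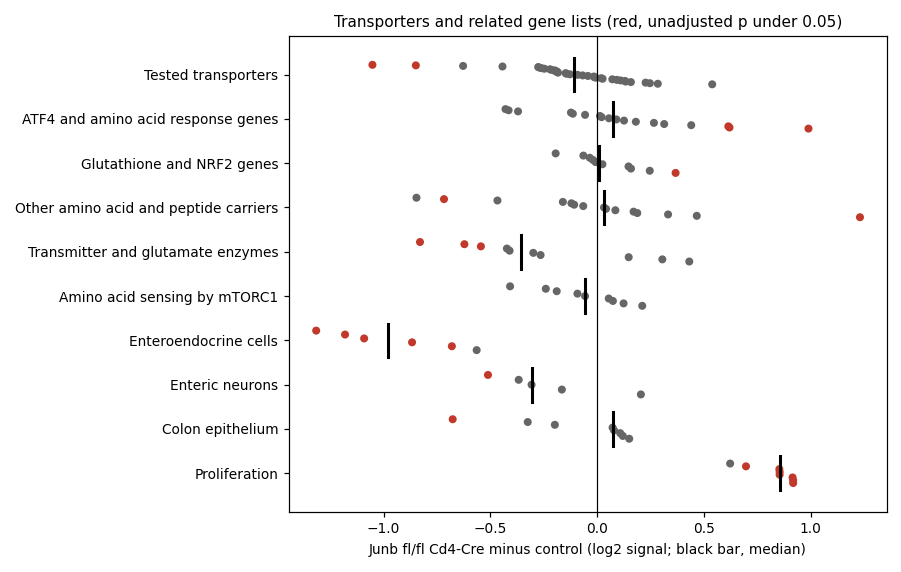
Differences between Junb fl/fl Cd4-Cre and control colons in log2 signal for the tested transporters and 9 related gene lists; each point is a gene and the black bar the median. The transporters centre at -0.11, enteroendocrine markers at -0.98 and proliferation markers at 0.85.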

How the data were processed

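Total RNA of 4 whole colons was labelled with Cy3 and hybridised to 1 array each. The deposited files hold linear intensity values per spot written by version 11.5.1.1 of Agilent's Feature Extraction software, per the file headers, with background already subtracted and with yes or no flags deposited beside them. All 4 arrays lay on 1 slide, per the file headers, so slide is no batch.

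Intensities were put on the log2 scale relative to the 75th percentile of the 59305 non-control spots of their array. Repeated spots were averaged after removing outliers, 11 probes were dropped, and the brightest probe well above background on at least 2 arrays stood for its gene. Limma 3.58.1 in R 4.3.3 (intensity trend, two-sided, no block) gave mutant minus control with moderated standard errors, n = 2 and 2. The fit was also run on simulated data with independent noise and no shared replicate effect. That run does not cover the split between replicates seen in these arrays. The p-values measure the spread between these samples, since the labels do not state separate litters, and the number of arrays limits the precision. Probe coordinates are on mm9. Promoters are RefSeq's on GRCm38.p6, and all 62 gene names matched a RefSeq symbol.

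The members and lists were chosen with earlier results of these data known. All 4 array values are given for tested members at an unadjusted p under 0.05 or 2-fold different, for the 5 brightest, for Slc3a2, Slc1a5, Slc6a14 and Slc6a4, and for genes well above background on 1 array. Related lists give up to 3 genes by smallest p. Slc36a1, Slc36a2, Slc6a17 and other members whose 4 values stand beside these, and Mthfd2, Nupr1, Psph, Atf4, Neurod1, Ly6g, Kdm5d and the list members named otherwise, were picked after their values were seen. Alternatives were normexp correction (offset 50), quantile or median scaling, other filters, mean of probes, no trend, a replicate block and leaving out each array. Some genes of the lists are not reported here.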

Additional observations from a re-analysis of the deposited data

Results flagged for a closer look

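Some transporters left out of the test gave a signal well above background in Junb fl/fl Cd4-Cre replicate 2 and in no control. These were Slc7a11 on 3 probes (-2.72, -3.48 and -3.77 on the log2 scale), Slc7a10 (-3.92) and Slc38a8 (-3.17). For the first of these Slc7a11 probes control replicate 2 read -3.70, and for the Slc7a10 probe -4.00, without being marked well above background. The lowest signal so marked was -4.25 in mutant replicate 2 and -3.97 in control replicate 2.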

How the results depend on the processing

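No member passed the adjusted threshold under any of the 12 alternatives, and limma with the replicate block called 46 genes of 19325 (0.238%), none of them a member. Members at an unadjusted p under 0.05 numbered 2 of 36 (5.56%, against 9.29% of all genes). After normexp correction 0 members passed, with 1599 of 19325 genes. Without the filter on dim probes 4 of 62 members passed, with 3607 of 37066 genes. The filter on all 4 arrays gave 1 of 30 members, with 1781 of 17875 genes. The replicate block gave 3 members (8.33%, against 17.5% of all genes). The mean of probes also gave 3, with 1710 of 19325 genes. The same-numbered colons deviated together (r = 0.24 across genes, which are not independent replicates), but 2 pairs do not establish a pairing. The count at least 2-fold different was 1, and 0 after normexp correction, quantile normalization or median scaling, and without the filter or with the strict one. The median difference of -0.11 was -0.059 after normexp correction, -0.027 after median scaling, -0.17 without the filter, and -0.15 to -0.020 without 1 array. Of 36 members, 16 kept their sign under every alternative that could be run for them. The filter on all 4 arrays left 30 members and dropped Slc38a11, Slc6a17 and Slc1a7. Signs turned after normexp correction for Slc43a3 (-0.0071), Slc6a20a (0.034), Slc6a7 (0.12) and Slc7a6 (0.014). With quantile normalization they turned for Slc38a9 (-0.046), Slc6a7 (0.059) and Slc7a6 (0.034). Median scaling turned Slc38a2 (0.014), Slc3a2 (0.066), Slc6a6 (0.039), Slc6a7 (0.074) and Slc7a6 (0.068). The mean of probes turned Slc38a9 (-0.022) and Slc3a2 (0.087). Without 1 array the sign turned for 19 members, over these ranges: Slc1a1 -0.20 to 0.42, Slc1a3 -0.63 to 0.077, Slc36a1 -0.90 to 0.50, Slc38a10 -0.010 to 0.15, Slc38a6 -0.38 to 0.017, Slc38a9 -0.15 to 0.21, Slc3a1 -0.21 to 0.52, Slc3a2 -0.12 to 0.094, Slc43a3 -0.15 to 0.19, Slc6a14 -0.63 to 0.20, Slc6a20a -0.45 to 0.16, Slc6a4 -0.99 to 0.60, Slc6a6 -0.13 to 0.038, Slc6a7 -0.46 to 0.45, Slc6a8 -0.37 to 0.082, Slc7a3 -0.21 to 0.39, Slc7a6 -0.20 to 0.17, Slc7a7 -0.014 to 0.28, Slc7a9 -0.15 to 0.41. The causes were not tested, except that fewer arrays or genes enter some of these fits.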
